A study of Mus musculus with 19 samples.

Results

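Gata1, Gata2 and Gata3, the GATA factors of blood cells, were all measured in the RNA sequencing of early innate lymphoid progenitors, as 3 of the 18607 genes of the deposited table. They were taken by their gene symbols, not by their values. GATA factors bind DNA at GATA-containing sites through a pair of zinc fingers. In textbook accounts Gata1 drives erythroid, megakaryocyte, mast cell and eosinophil development, Gata2 maintains stem and early progenitor cells and mast cells, and Gata3 is needed for T cells and for innate lymphoid cells, above all group 2 cells. Gata1 and Gata2 can replace each other at shared sites, and the balance between family members is part of what sets a blood cell's lineage.

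The 19 libraries came from bone marrow cells sorted from C57BL/6 mice and fall into 3 groups. ALP, the common lymphoid progenitors (7 libraries), were sorted as lineage-low, Ly-6D-low, Kit+, IL-7Ra+ and Flt3-high cells. EILP, the early innate lymphoid progenitors (7 libraries), were Ly-6D-low, Thy-1.2-low, CD122-low and Kit+, with high GFP and low to intermediate IL-7Ra. ILCp (5 libraries), the later innate precursors, were also Ly-6D-low, CD122-low and GFP-high, but Thy-1.2+, IL-7Ra-high and a4b7+. Every ALP and EILP library and ILCp 1, 2 and 3 came from Tcf7EGFP/+ mice, in which GFP reports the innate and T lineage factor gene Tcf7, and ILCp 4 and 5 came from Plzf-cre-GFP/+ mice, which report Zbtb16. No library came from mice without a reporter, and nothing in the labels ties the replicates to different animals. The p-values therefore speak only to the spread among these libraries, which may be technical. The labels place the libraries in 5 batches; batch 3 held EILP 3 and 4 alone and batch 5 held no ILCp.

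Of the genes behind the sorts, Tcf7, Thy1, Il7r and Flt3 were ordered as the gates are. Tcf7 averaged 1.06 ± 2.64 log2 CPM (counts scaled to a common library total) in ALP, 10.51 ± 1.85 in EILP and 9.24 ± 0.28 in ILCp (SD, n = 7, 7 and 5). Thy1 averaged −2.84, 0.07 and 5.30, Il7r 7.46, 5.34 and 9.93, and Flt3 10.21, 7.34 and 3.25 in the same order. Il2rb, encoding CD122, averaged −1.68, 7.14 and 6.61, high in EILP and ILCp although both gates took CD122-low cells, and Ly6d averaged 5.67, 1.10 and 1.20, highest in ALP although all 3 gates took Ly-6D-low cells. Levels are the deposited log2 CPM throughout, and no total counts were available, so the depth behind them is unknown. Judged from the values, batch differences had been taken out of the deposited levels gene by gene, which leaves the SD within groups too small. In bulk samples like these, fewer expressing cells and less RNA per cell cannot be told apart.

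The promoters of the genes are shown because each deposited level sums the transcripts of a gene from all its start sites, and Gata2 has 2 of them in the reference. In build GRCm38, Gata1 lies at X:7959260-7978071 on the minus strand, Gata2 at 6:88193891-88207032 on the plus strand and Gata3 at 2:9857078-9890034 on the minus strand. The 250 bases before each start (RefSeq, GRCm38.p6) are given 5′ to 3′ on the gene's strand, with the GC box (GGGCGG, searched on both strands) in capitals. The windows are chrX:7967911-7968160 for Gata1, chr6:88193641-88193890 and chr6:88198414-88198663 for the first and second start of Gata2, and chr2:9878601-9878850 for Gata3.
Gata1: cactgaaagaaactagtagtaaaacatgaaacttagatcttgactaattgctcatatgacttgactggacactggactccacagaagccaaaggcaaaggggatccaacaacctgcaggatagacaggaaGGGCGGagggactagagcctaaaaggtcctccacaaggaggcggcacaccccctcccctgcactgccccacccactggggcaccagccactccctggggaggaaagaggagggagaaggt
Gata2, first start: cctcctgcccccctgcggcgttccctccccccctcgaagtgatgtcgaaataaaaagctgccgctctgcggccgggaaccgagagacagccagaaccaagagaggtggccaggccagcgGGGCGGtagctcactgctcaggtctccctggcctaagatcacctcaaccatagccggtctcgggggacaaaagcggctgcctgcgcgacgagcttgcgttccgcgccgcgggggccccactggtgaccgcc
Gata2, second start: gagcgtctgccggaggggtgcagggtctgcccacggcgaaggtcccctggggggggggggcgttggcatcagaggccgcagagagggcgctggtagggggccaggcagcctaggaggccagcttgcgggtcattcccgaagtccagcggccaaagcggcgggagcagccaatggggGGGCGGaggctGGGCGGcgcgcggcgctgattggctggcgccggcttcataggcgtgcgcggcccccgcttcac
Gata3: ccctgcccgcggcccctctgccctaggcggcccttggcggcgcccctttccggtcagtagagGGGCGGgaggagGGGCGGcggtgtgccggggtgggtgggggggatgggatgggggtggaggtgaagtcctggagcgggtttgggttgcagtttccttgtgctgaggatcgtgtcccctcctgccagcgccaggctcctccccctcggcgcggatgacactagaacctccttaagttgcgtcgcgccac

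The Gata1 window had a GC content of 54%, against 67.2% and 74% for the starts of Gata2 and 70% for Gata3. It held 1 GC box, as did the first Gata2 window, while the second Gata2 window and the Gata3 window held 2 each. Of the 32851 promoter windows of the same length, 32.7% held at least 1. None of the 4 windows matched the GATA site (the letters AGATAA, with T also allowed first and G also allowed last, in 26.5% of all windows), the TCF/LEF site (CTTTGAT, with A also allowed last, 7.48%), the RUNX site (TGTGGT, 14%) or the E box (the letters CAGCTG, or else the letters CACCTG, 27.7%), each searched on both strands. No match says only that these letters are not in these 250 bases. The kits used do not mark strand. The Gata3 locus overlaps the antisense gene Gm13256 and the genes 4930412O13Rik and 9230102O04Rik, so reads of Gata3 could not be told from reads of these neighbours where exons overlap.

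Gata3 rose at both steps and its levels in the 3 stages did not overlap. In ALP 1 to 7 it was 1.76, 2.19, 0.69, 0.37, 1.63, 2.09 and 2.10 log2 CPM, with a lowest, median and highest of 0.37, 1.76 and 2.19. In EILP 1 to 7 it was 7.35, 7.56, 6.96, 7.24, 7.57, 6.36 and 6.67, and in ILCp 1 to 5 it was 9.60, 9.82, 9.70, 10.11 and 11.09. Every EILP library stood above every ALP library, and every ILCp library above every EILP library. EILP 3 and 4 were placed around the EILP mean of 7.10 by the batch removal and do not count towards this. The lowest and highest EILP libraries, EILP 6 and 5, are from other batches. The highest ILCp libraries were ILCp 4 and 5, from Plzf-cre-GFP/+ mice. In rank within a library, Gata3 lay between percentiles 42.13 and 47.09 of all genes in ALP, 82.82 and 94.18 in EILP, and 99.41 and 99.94 in ILCp.

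The limma model fitted across all genes, with batch as a term, gave Gata3 a log2 fold change of 5.55 ± 0.39 (SE) between EILP and ALP (adjusted p = 2.72e-07). Between ILCp and EILP it was 2.96 ± 0.46 (limma, adjusted p = 0.00249), and over both steps 8.51 ± 0.44 (limma, adjusted p = 1.06e-08). Of the 3 GATA genes, 1 passed in each comparison, as a higher level in the later stage. Among all genes 5.05% passed for EILP versus ALP (2.25% higher and 2.79% lower in EILP), 3.21% for ILCp versus EILP (1.76% higher and 1.46% lower in ILCp) and 8.24% for ILCp versus ALP (3.86% higher and 4.39% lower in ILCp). Groups without overlap, whichever was higher, occurred in 4.74%, 8.68% and 8.96% of genes. In the 4 batches that held both stages, Gata3 was higher in EILP than in ALP by 5.59, 6.12, 7.20 and 4.57, and in the 3 batches with ILCp it was higher in ILCp than in EILP by 2.24, 2.27 and 2.73. With only the batches that held both stages, the second step was 2.46 with a limma adjusted p of 0.123, and it also missed the threshold when tested for a change of at least 2-fold (adjusted p = 0.0838).

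**Figure D1:**
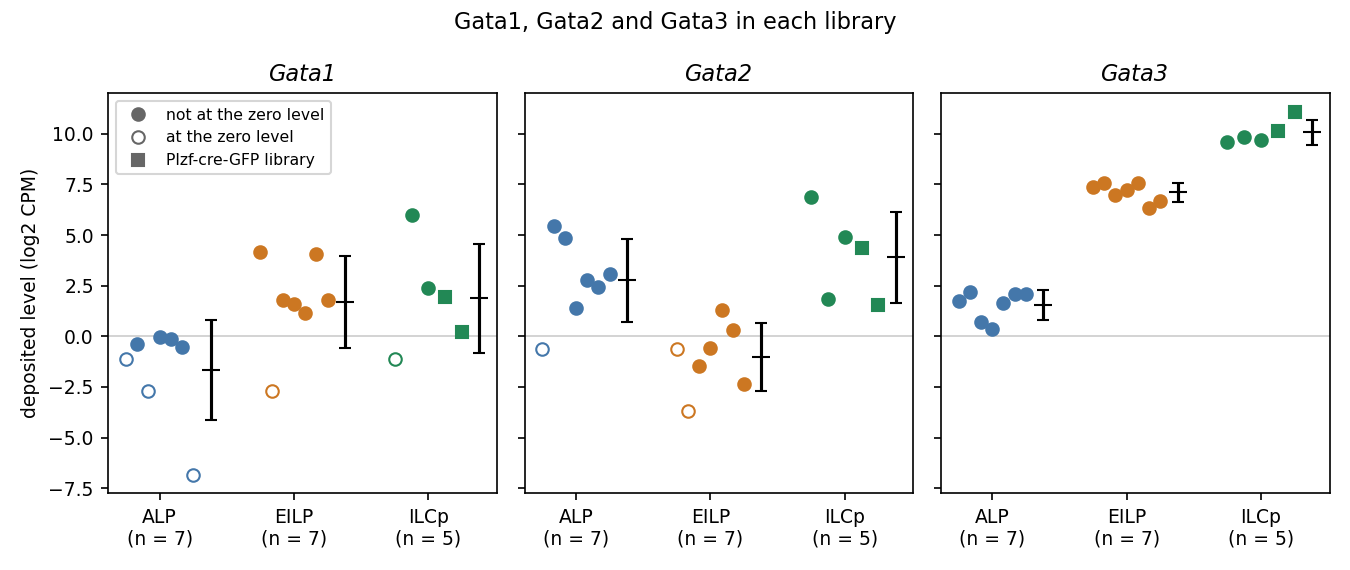
Deposited log2 CPM of Gata1, Gata2 and Gata3 in every library (points, in replicate order from left to right) by stage, with the group mean and SD beside them; open points are libraries at the zero level of Gata1 or Gata2 (for Gata3 it was recovered in batch 5 alone), and squares are the Plzf-cre-GFP libraries. Gata3 forms 3 separate bands near 1.55, 7.10 and 10.06, while Gata1 and Gata2 spread over several log2 units within each stage.

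Gata2 followed another course, lowest in EILP, but neither step passed the test. In ALP 1 to 7 it was −0.62, 5.44, 4.86, 1.37, 2.77, 2.44 and 3.09 log2 CPM. In EILP 1 to 7 it was −0.62, −3.70, −1.46, −0.57, 1.28, 0.29 and −2.34, and in ILCp 1 to 5 it was 6.90, 1.82, 4.89, 4.37 and 1.54. Apart from ALP 1, every deposited ALP value stood above every EILP value. The lowest ILCp value lay just above the highest EILP value, with no overlap, as in 8.68% of all genes, whichever stage was higher. Neither separation held before batch removal, where Gata2 was 2.97 in EILP 5, 2.96 in ALP 6 and 0.57 in ILCp 2.

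The group means of Gata2 were 2.76 ± 2.05 in ALP, −1.02 ± 1.66 in EILP and 3.90 ± 2.24 in ILCp (SD, n = 7, 7 and 5). The difference between EILP and ALP was −3.78 ± 1.25 (SE; limma, adjusted p = 0.105), and that between ILCp and EILP was 4.92 ± 1.48 (limma, adjusted p = 0.086). ILCp and ALP differed by 1.14 ± 1.43 (limma, adjusted p = 0.728). The rank of the means was thus ILCp, ALP, EILP, of which ILCp and ALP did not differ beyond their spread. The first difference was −4.83 and passed without ALP 1, where Gata2 is at zero (limma, adjusted p = 0.0312), and was −2.77 without EILP 2, also at zero (adjusted p = 0.314), and −2.59 without ALP 7 and EILP 2 (adjusted p = 0.395). Within batches the EILP minus ALP difference of Gata2 was 0, −8.85, −0.09 and −3.79 in batches 1, 2, 4 and 5, so that it came from batches 2 and 5. The ILCp minus EILP difference was 7.52, 5.53 and 2.31 in batches 1, 2 and 4, positive in each. Gata2 was at zero in ALP 1 and EILP 1 of batch 1 and in EILP 2 of batch 2. The differences in those batches therefore rest on the zero level.

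Gata1 was the least even of the 3 genes. It was −1.13, −0.37, −2.70, −0.03, −0.13, −0.53 and −6.84 log2 CPM in ALP 1 to 7. It was 4.16, −2.70, 1.81, 1.58, 1.15, 4.07 and 1.80 in EILP 1 to 7, and −1.13, 5.99, 2.38, 1.94 and 0.22 in ILCp 1 to 5. As deposited, all ALP libraries were below 0, and 6 of 7 EILP and 4 of 5 ILCp libraries were above it, while EILP 2 and ILCp 1 lay among the ALP values. This split does not hold before batch removal, where Gata1 was 2.95, 1.75 and 1.36 in ALP 4, 5 and 6 and 0.33 in EILP 1. The values of ALP 1, 3 and 7, EILP 2 and ILCp 1 are the zero levels of their batches, described below.

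Gata1 averaged −1.67 ± 2.46 in ALP, 1.70 ± 2.29 in EILP and 1.88 ± 2.69 in ILCp (SD, n = 7, 7 and 5), and no comparison passed. EILP minus ALP was 3.37 ± 1.56 (SE; limma, adjusted p = 0.276), and ILCp minus ALP was 3.56 ± 1.78 (limma, adjusted p = 0.274). ILCp minus EILP was 0.19 ± 1.85 (limma, adjusted p = 0.979), and this difference changed sign without EILP 2, EILP 5 or ILCp 2. Within batches the EILP minus ALP difference of Gata1 was 5.29, −1.17, 1.18 and 5.44 in batches 1, 2, 4 and 5. The ILCp minus EILP difference was −5.29, 8.69 and 0.36 in batches 1, 2 and 4, with no common direction. Gata1 was at zero in ALP 1 and ILCp 1 of batch 1, in ALP 3 and EILP 2 of batch 2 and in ALP 7 of batch 5. The differences in those batches therefore rest in part on the zero level.

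Some libraries held Gata1 or Gata2 at the bottom of the measured range. The lowest level that a batch gives a gene, recovered from ties and from levels that libraries share, is taken here as the level of a gene with no reads and called the zero level. Gata1 was at zero in ALP 1, 3 and 7, in EILP 2 and in ILCp 1, and Gata2 was at zero in ALP 1 and in EILP 1 and 2. Every other library had Gata1 and Gata2 above zero. The lowest level above zero held by at least 5 genes differed between libraries. It ran from 0.116 log2 units above zero in EILP 5 and ILCp 5 to 4.60 in ALP 7. In a library like ALP 7, any level between zero and that step was held by fewer genes than that.

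**Figure D2:**
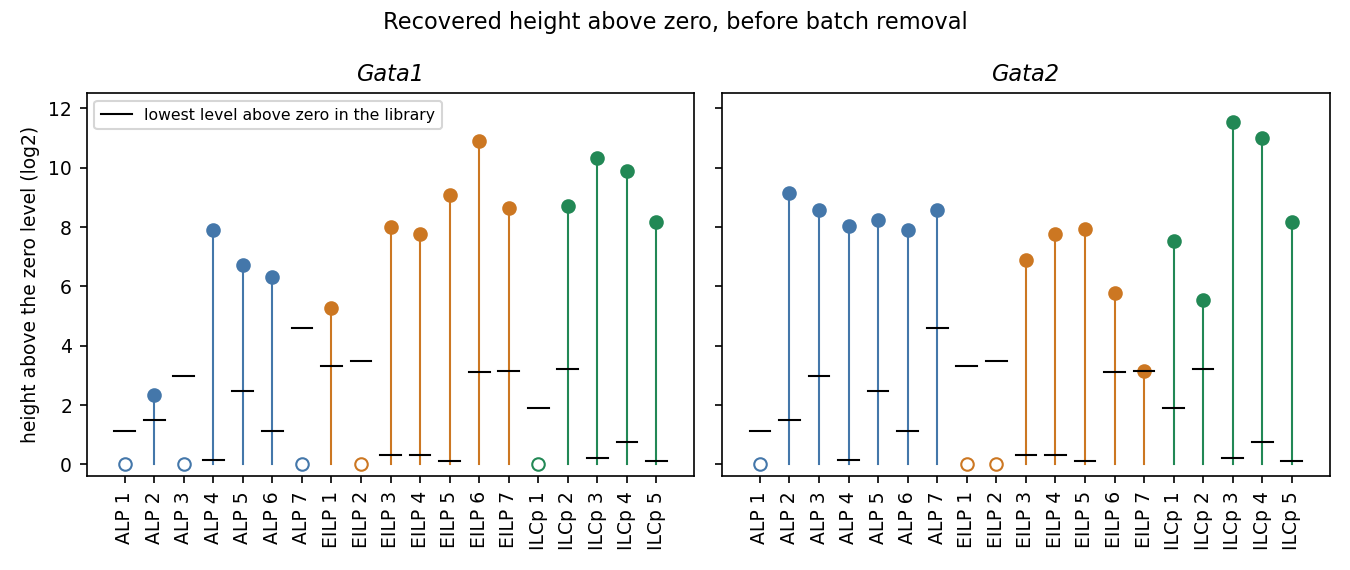
Height of Gata1 and Gata2 above the zero level in each library (log2 units, before batch removal), coloured by stage with open points at zero. Short black bars mark the lowest level above zero that at least 5 genes held in the library. Gata2 in EILP 7 sits on that lowest level at 3.14, and the open points are the 5 libraries without Gata1 and the 3 without Gata2.

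Set back to the levels before batch removal, the median of Gata2 was 3.28 in ALP, 0.81 in EILP and 3.23 log2 CPM in ILCp. On that scale the stages overlapped, since Gata2 reached 2.97 in the highest EILP library and was 0.57 in the lowest ILCp library. The median of Gata1 was −2.63 in ALP, 3.04 in EILP and 3.73 in ILCp, with a highest ALP library of 2.95. The zero level of Gata3 could be recovered in batch 5 alone, where it stood 7.49 to 7.97 log2 units above zero in ALP 5, 6 and 7. Gata3 was therefore read in those ALP libraries, well above their lowest level.

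The members were also set against each other within a library. Where a member is at zero, a deposited log2 ratio is set by the zero level of the batch, which ran from −7.94 to −1.13 for Gata1 and from −8.35 to −0.62 for Gata2, and is not a measured ratio. Both genes were at zero in ALP 1 and EILP 2. Permutation tests of the ratios took in such libraries, so no difference in ratio is claimed from them, and ratios are given here as values, from libraries in which the Gata1 or Gata2 level used stood above zero.

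Within batch 4 the log2 ratio of Gata3 to Gata2 was −1.0 in ALP 4, 6.29 in EILP 5 and 4.82, 5.74 and 9.55 in ILCp 3, 4 and 5. Within batch 5 it was −1.14, −0.35 and −0.98 in ALP 5, 6 and 7 and 6.06 and 9.01 in EILP 6 and 7. In both batches the ratio was lower in every ALP library than in every library of the later stages. Its sign has no meaning here, since the scale is not per length and each gene has its own batch offset.

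The log2 ratio of Gata2 to Gata1 could be taken on the levels before batch removal, in the 13 libraries with both genes above zero. It was 6.81, 0.11, 1.53 and 1.60 in ALP 2, 4, 5 and 6, and −1.11, 0, −1.16, −5.15 and −5.50 in EILP 3 to 7. In ILCp 2 to 5 it was −3.17, 1.22, 1.14 and 0.03. The ALP values were all above the EILP values, by a small margin between ALP 4 and EILP 4, and the ILCp values overlapped both. Since these libraries are those in which both genes were read, no test was made on them.

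Per kilobase of exon, the order of the deposited means differed between stages. These means take in libraries at zero and the batch offset of each gene, so the order of overlapping members is not established. In ALP the mean level was 0.33 log2 CPM per kb for Gata2, −0.44 for Gata3 and −2.96 for Gata1, and the ranges of all 3 overlapped. In EILP it was 5.11 for Gata3, 0.41 for Gata1 and −3.45 for Gata2. There Gata1 (−3.99 to 2.87) and Gata2 (−6.14 to −1.15) overlapped. In ILCp it was 8.07 for Gata3, 1.47 for Gata2 and 0.60 for Gata1, the last pair again with overlapping ranges. On this scale Gata3 was the highest member in each EILP and ILCp library.

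The 2 reporter strains of the ILCp were compared in the same model. Gata3 was 1.12 ± 0.63 (SE) higher in the Plzf-cre-GFP libraries than in the Tcf7EGFP libraries, Gata2 1.99 ± 2.19 lower and Gata1 1.68 ± 2.78 lower. None passed (limma, adjusted p = 1 for each), against 14 genes, 0.0752% of all, that did. With 2 libraries in batch 4 alone on the Plzf side, the errors allow differences of several log2 units for Gata1 and Gata2.

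Partner proteins decide where GATA factors act. Zfpm1 encodes FOG-1, the cofactor that binds the amino-terminal zinc finger of Gata1, and Tal1, Lmo2 and Ldb1 encode the bridging complex that joins Gata1 or Gata2 on DNA. Zfpm1 had its lowest, median and highest level at 2.64, 3.42 and 3.93 log2 CPM in ALP and at 4.85, 5.88 and 6.61 in EILP, and it was 4.35, 6.16, 4.73, 5.41 and 4.64 in ILCp 1 to 5. Every EILP and ILCp library lay above every ALP library. It rose by 2.40 ± 0.38 (SE) from ALP to EILP (limma, adjusted p = 0.000921) and was 1.67 ± 0.43 higher in ILCp than in ALP (adjusted p = 0.0238), although the latter was 0.94 and missed the threshold (adjusted p = 0.187) without EILP 1, EILP 6 and ILCp 2.

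Lmo2 moved the other way. It ran from 7.13 to 8.52 log2 CPM in ALP, from 4.68 to 6.63 in EILP and from 2.47 to 5.76 in ILCp, with ALP above both other stages throughout. It fell by 2.44 on the log2 scale from ALP to EILP (limma, adjusted p = 0.0103) and was lower by −3.77 in ILCp than in ALP (adjusted p = 0.000826). Tal1 differed by 1.02 ± 0.88 and Ldb1 by −0.23 ± 0.21 between EILP and ALP (SE), and neither passed in any comparison.

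**Figure D3:**
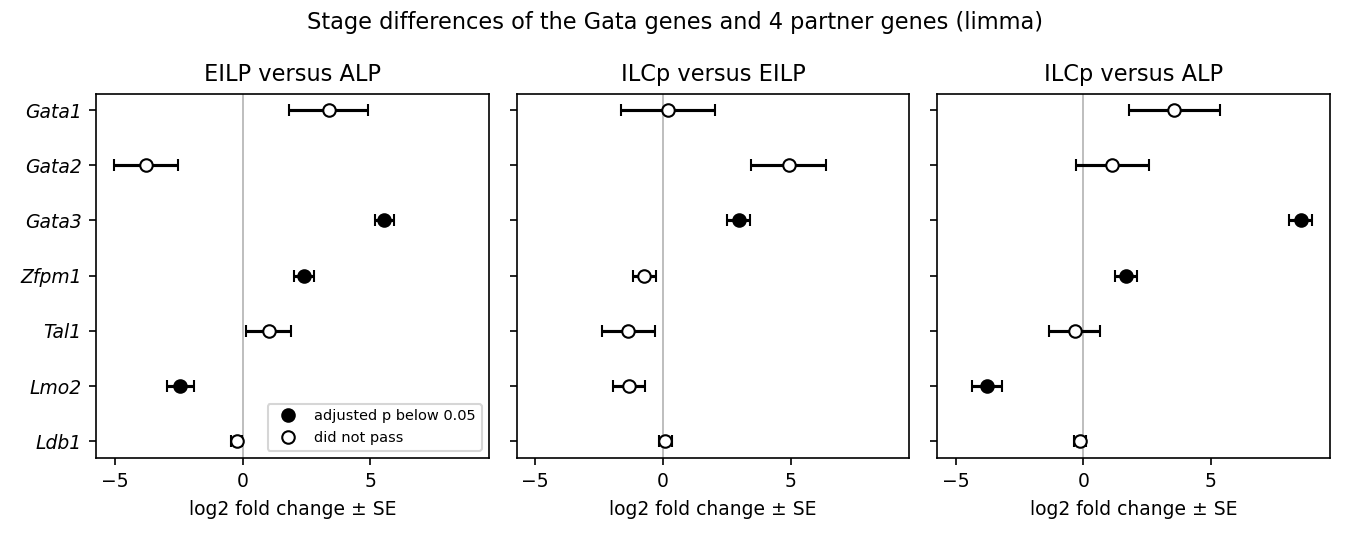
Log2 fold change with SE from the limma model (x axis) for the 3 GATA genes and 4 partner genes (y axis) in the 3 comparisons; filled points passed an adjusted p below 0.05. Gata3 is filled in all 3 panels and Gata1 and Gata2 in none, with SEs of 1.25 to 1.85 against 0.39 to 0.46 for Gata3.

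Of 18 measured partner genes, 3 rose and 2 fell from ALP to EILP (median log2 fold change 0.13, against 0 over all genes). For this list and those below, 2.25% of all genes rose and 2.79% fell at this step. At the second step 1.76% rose and 1.46% fell, and 3.86% were higher and 4.39% lower in ILCp than in ALP. Gfi1b, a repressor needed for erythroid and megakaryocyte development, rose by 2.37 ± 0.54 (SE; limma, adjusted p = 0.0161), and Lmo4, another LIM adaptor that binds Ldb1, rose by 1.66 ± 0.32 (adjusted p = 0.00516). Lmo4 rose again by 3.49 ± 0.38 from EILP to ILCp (limma, adjusted p = 0.000166), where 3 partner genes fell (median −0.87, against −0.08 over all genes). These were Spi1, encoding PU.1, which Gata1 can bind and oppose (−2.52), the Tal1 relative Lyl1 (−2.85) and the corepressor gene Cbfa2t3 (−1.89). Between ILCp and ALP 3 were higher and 5 lower. Without EILP 1, EILP 6 and ILCp 2, the 3 and 2 of the first step became 1 and 2, and the 1 and 3 of the second became 1 and 0, Gfi1b and Lmo4 missing the threshold at the first step (limma, adjusted p = 0.212 and 0.0916).

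Among other genes of GATA-type zinc finger proteins, 4 of 7 were in the table. Gatad1 was higher in ILCp than in EILP by 1.11 ± 0.22 (SE; limma, adjusted p = 0.0141), and Trps1, Gatad2a and Gatad2b did not pass in any comparison. Without EILP 1, EILP 6 and ILCp 2 Gatad1 missed the threshold at that step. Gata4, Gata5 and Gata6 were not analysed here.

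Stem and progenitor factors that work with Gata2 changed in part. Of 15, 2 rose and 3 fell from ALP to EILP (median −0.45, against 0 over all genes), and 1 rose and 2 fell from EILP to ILCp (median −1.27, against −0.08). Hoxa9, a homeobox gene of stem and progenitor cells, fell by 2.29 on the log2 scale and its cofactor Meis1 by 1.29 (limma, adjusted p = 0.0232 and 0.0452). Mycn rose by 2.56 ± 0.33 to EILP and fell by 1.76 to ILCp (SE; limma, adjusted p = 0.00016 and 0.0231). Between ILCp and ALP, 2 were higher and 7 lower, among them Erg at −7.74 ± 1.24 (SE; limma, adjusted p = 0.000897), an Ets factor of stem cells. The counts of higher and lower genes were 1 and 2 at the first step and 0 and 0 at the second without EILP 1, EILP 6 and ILCp 2, and 1 and 1, then 1 and 0, without ALP 7 and EILP 2.

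The factors that work with Gata3 in innate lymphoid cells changed at the same first step as Gata3. Of 17, 12 rose and 2 fell from ALP to EILP (median 4.58, against 0 over all genes), and the counts were the same without EILP 1, EILP 6 and ILCp 2. Bcl11b, a T cell and group 2 innate factor, rose by 9.63 ± 0.46, Lef1 by 9.83 ± 0.56 and Id2, the inhibitor of E proteins, by 4.58 ± 0.23 (SE; limma, adjusted p = 4.87e-09, 4.21e-08 and 1.09e-08). Notch1 fell by 2.19 and Ets1 by 1.76 on the log2 scale (limma, adjusted p = 0.000414 and 0.00865). From EILP to ILCp 3 rose and 1 fell: Ets1 rose by 4.81 ± 0.44, Bcl11b by 3.75 ± 0.54 and Id2 by 1.53 ± 0.28, while Nfil3 fell by 2.36 (SE; limma, adjusted p = 1.97e-05, 0.00163, 0.00729 and 0.00501). EILP were sorted as GFP-high cells of Tcf7EGFP/+ mice, so the rise of Tcf7 is partly given by the gate.

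Some group 2 and type 2 genes linked to Gata3 rose at each step, and none fell. Of 16 measured, 2 rose from ALP to EILP (median 0.07, against 0 over all genes), and 6 rose and none fell from EILP to ILCp (median 4.45, against −0.08). The chemokine receptor gene Ccr4 rose by 6.97 ± 0.93, Ccr8 by 8.44 ± 1.71 and the costimulatory receptor gene Icos by 6.93 ± 1.25 (SE; limma, adjusted p = 0.000992, 0.0144 and 0.00709). Without EILP 1, EILP 6 and ILCp 2, the list held 2 calls at that step and none at the first, and without ALP 7 and EILP 2 it held 3 and 2. The difference between the steps was not tested. Il5, encoding a cytokine of group 2 cells, and Areg were at the zero level in all 7 ALP and all 7 EILP libraries. In ILCp, Il5 was at zero in 4 of 5 libraries and Areg in 1 of 5.

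Nearest to Gata3 over the 19 libraries, by the root mean square difference of mean-centred log2 levels among 10674 genes with a mean above 0, were Trbj1-5 (0.651), Trbj1-2 (0.932), Id2 (1.16), Rarg (1.17) and Trbd1 (1.20). Trbj1-5, Trbj1-2 and Trbd1 are short segments of the T cell receptor beta locus, whose near copies make their counts uncertain. The 5 nearest to Gata2 were Ranbp17, Tmem140, Tnfaip2, Map3k14 and Vps9d1, at 1.67 to 1.84. The 5 nearest to Gata1 were Zbtb26, Jrk, Aqp1, Crip2 and Rhof, at 1.34 to 1.65. Aqp1 is also among the erythroid markers taken up below. Between members the difference was 4.29 for Gata1 and Gata2, 3.15 for Gata1 and Gata3 and 4.62 for Gata2 and Gata3. These were not ranked among the 10674 genes, and they take in libraries with Gata1 or Gata2 at zero.

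Cells of the lineages in which Gata1 and Gata2 are known were looked for by their markers. The summed level of 18 erythroid markers was 15.3 to 317 CPM in ALP, 94.9 to 1994 in EILP and 90.6 to 2051 in ILCp. It was highest in EILP 1 (1266), EILP 6 (1994) and ILCp 2 (2051), the 3 libraries with the highest deposited Gata1. Before batch removal the 3 were not the highest, since Gata1 was then 0.33 log2 CPM in EILP 1 and 5.35 in ILCp 3. Without these 3 libraries EILP minus ALP was 1.43 ± 1.54 for Gata1 (SE; limma, adjusted p = 0.721), a fall that follows from leaving out the libraries with the highest Gata1. The part of erythroid RNA in the Gata1 levels was not tested. Of the erythroid markers only Tfr2, a transferrin receptor, passed, rising by 5.25 ± 1.02 from ALP to EILP (SE; limma, adjusted p = 0.00509), and none passed without EILP 1, EILP 6 and ILCp 2. The median log2 fold change of the 18 markers was 2.98 from ALP to EILP, against 0 over all genes. It was −0.45 from EILP to ILCp (against −0.08) and 2.42 between ILCp and ALP (against −0.03).

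**Figure D4:**
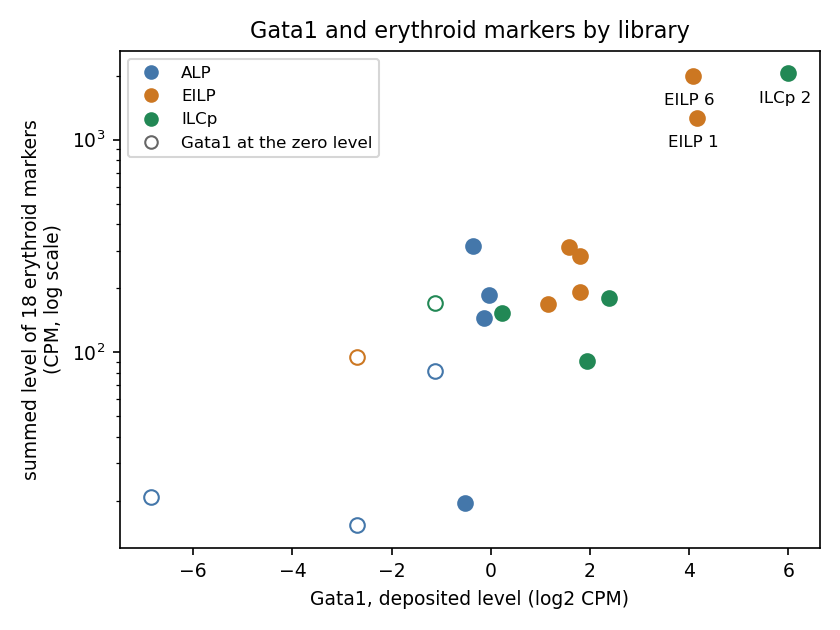
Deposited Gata1 level (x axis, log2 CPM) against the summed level of 18 erythroid markers (y axis, CPM, log scale) in the 19 libraries, coloured by stage with open points where Gata1 is at zero. EILP 1, EILP 6 and ILCp 2 stand apart at the upper right, between 1266 and 2051 CPM.

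Mast cells and eosinophils also use Gata1 and Gata2. The 8 measured mast cell and basophil markers summed to 17.0 to 720 CPM in ALP, 352 to 5017 in EILP and 129 to 723 in ILCp. Cpa3, encoding a mast cell protease, rose by 9.35 ± 1.27 from ALP to EILP (SE; limma, adjusted p = 0.000253) to 10.04 ± 1.46 log2 CPM (SD, n = 7), the stage with the lowest mean Gata2. Ms4a2, encoding the beta chain of the IgE receptor, was at zero in 6 of 7 ALP, 4 of 7 EILP and 2 of 5 ILCp libraries. Of the 8 markers, Cpa3 alone passed from ALP to EILP (median log2 fold change 0.71, against 0 over all genes). Without passing, Hdc, Mcpt8 and Ms4a2 were higher in EILP (5.48, 3.24 and 2.04). Prss34, Mitf, Fcer1a and Cd200r3 were lower there (−4.49, −2.77, −1.06 and −0.63), also without passing. The 9 eosinophil markers summed to 1.81 to 77.8 CPM in ALP, 51.8 to 11120 in EILP and 0.503 to 3.24 in ILCp, the highest in EILP 6. In EILP 6 Gata1 was 4.07 log2 CPM as deposited and 5.96 before batch removal, the highest on that scale. The next highest eosinophil sum was 679 in EILP 2, where Gata1 is at zero. The lowest sum was 0.503 in ILCp 2, where Gata1 was 5.99 as deposited, the highest, and 3.73 before batch removal. A relation of the eosinophil sum to Gata1 was not tested. The granule genes Epx, Prg2, Prg3 and Ear2 were lower in ILCp than in EILP, Epx by −10.84 and Prg2 by −12.59 on the log2 scale (limma, adjusted p = 0.00995 and 0.0116). These 4 calls became 1 without ALP 7 and EILP 2 and 0 without EILP 1, EILP 6 and ILCp 2. Their part in the GATA levels was not tested.

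Megakaryocyte markers (14 measured) summed to 107 to 155 CPM in ALP, 220 to 436 in EILP and 396 to 872 in ILCp. Itga2b, the integrin alpha chain CD41, rose by 10.09 ± 1.03 from ALP to EILP (SE; limma, adjusted p = 1.53e-05), while Ppbp, Gp5 and Tubb1 were at zero in all 7 ALP libraries and Tubb1 in all 5 ILCp libraries. The sum of 12 T cell markers was 212 to 669 CPM in ALP, 235 to 443 in EILP and 327 to 1177 in ILCp. T cells also use Gata3: of these markers, Themis rose from ALP to EILP by 9.96 ± 0.64 (SE; limma, adjusted p = 1.51e-07) and the other 11 did not pass. Cd3d and Cd3g, encoding chains of the T cell receptor complex, were higher in ILCp than in ALP by 6.11 ± 1.54 and 7.14 ± 2.00 (SE; limma, adjusted p = 0.0209 and 0.037), as was Themis, and they were at zero in 0 and 1 of 5 ILCp libraries. Cd3e, another chain, was at zero in all 7 ALP, 3 of 7 EILP and 3 of 5 ILCp libraries, and Cd4 in all 7 EILP libraries. The 10 NK cell markers summed to 115.6 to 312.8 CPM in ALP, 404 to 697.5 in EILP and 457.5 to 663 in ILCp, with ALP below both other stages. The sum is largely Nkg7, which averaged 7.46, 8.93 and 8.93 log2 CPM in the same order. Nkg7 and Gzma, encoding cytotoxic granule proteins, rose from ALP to EILP by 1.48 ± 0.20 and 6.23 ± 1.30 (SE; limma, adjusted p = 0.000276 and 0.00865). The other 8 did not pass at that step (median of the list 1.69, against 0 over all genes). Prf1 was at zero in all 7 EILP libraries. The NK receptor gene Ncr1 was higher in ILCp than in ALP by 7.45 ± 1.87 (SE; limma, adjusted p = 0.0207). B lineage markers summed to 54.2 to 99.8 CPM in EILP against 130.8 to 299.6 in ALP, with 2 of 8 lower, Blnk and Ebf1. Stroma markers summed to 91.2 to 1532 in EILP against 58.4 to 149 in ALP, with 2 of 7 higher, Col1a1 and Col1a2. Granulocyte and monocyte markers summed to 600 to 6498 in ALP, 1694 to 42220 in EILP and 135 to 1984 in ILCp. Of these 12, 1 was higher in EILP than in ALP and 4 were lower in ILCp than in EILP. The stroma ranges overlapped, as did the granulocyte ranges. Whether any of these markers bear on the levels of the GATA genes was not tested.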

How the data were processed

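Total RNA of sorted bone marrow progenitors was extracted with the RNeasy plus micro kit and amplified with the SMARTer Ultra Low kit (v3) before Nextera XT tagging, as the labels' protocols state. The submitters' processing notes name bcl2fastq 1.8.4, STAR 2.4.0h, edgeR, limma and build mm10, with no role or order; the annotation and the counting step are not stated there. The deposited file gives 18607 genes by 19 libraries on a log2 scale, and titles set the groups.

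From the values, the deposited log2 numbers sum to 908573 to 1035200 CPM per library. Genes at their lowest level in all 5 batches (2426) shared 1 mean level of −4.96 in 99.88% of cases, as values cleared of batch differences would; no header records this step. Zero levels were recovered per gene and batch from ties, from 4524 levels shared between libraries and from that common mean.

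Stages were contrasted in limma 3.58.1 (R 4.3.3) from the deposited values with group and batch as fixed effects, a mean-variance trend and two-sided tests, with Benjamini-Hochberg adjustment over all 18607 genes and a threshold of 0.05. No filter or pseudocount was applied. EILP 3 and 4, alone in batch 3, add to the error estimate only. Ratios of the members were tested by exact permutation, but these tests took in libraries at zero and are not used as results. The scripts were tested on simulated data. The members, their partners, up to 3 genes per list and direction with the smallest p, and the 5 nearest genes per member were named. Members, lists and tests were chosen with earlier results of these data known. Exon lengths and positions came from GENCODE (GRCm38), promoters from RefSeq.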

Additional observations from a re-analysis of the deposited data

Results flagged for a closer look

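Gata1 in ALP 7 stood far below the other ALP libraries, at −6.84 log2 CPM against −2.70 to −0.03 in the other 6. Its gap to the nearest library was 0.608 of the range of the group. It was 1 of 21 gene and group combinations examined in this way, and chance alone marks about 1 in 20. Gata1 was at its zero level in ALP 1, 3 and 7 alike, at −4.96 before batch removal. The deposited value of that zero was −1.13, −2.70 and −6.84 in their 3 batches, so the low value of ALP 7 is the deposited zero of batch 5, and Gata1 was not lower there than in ALP 1 and 3.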

How the results depend on the processing

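Gata3 kept its direction and stayed past the threshold in all 3 comparisons in every setting run, except that the second step missed it with only the batches holding both groups (2.46, limma adjusted p = 0.123) and when tested for at least a 2-fold change (2.96, adjusted p = 0.0838).

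Counts of genes called (939, 598 and 1534 for EILP versus ALP, ILCp versus EILP and ILCp versus ALP) were 2551, 3047 and 3856 without the batch term, 3391, 8201 and 11612 with batch as a random effect and 266, 46 and 397 for at least 2-fold. The cause was not tested. For the second and the last comparison they were 183 and 772 with only the groups compared, 14 and 635 with only shared batches, 254 and 1012 without the Plzf-cre-GFP libraries, and 149 and 878 without EILP 1, EILP 6 and ILCp 2. For the second alone they were 280 with no variance trend and 309 without ALP 7 and EILP 2. The last 2 omissions were chosen after seeing the data. The fits without a batch term or with batch as a random effect do not allow for the batch differences already taken out. Their counts are not used as results.

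With the replicate number as a block in place of batch the counts were 1613, 1484 and 2362, and Gata2 passed between ILCp and EILP (4.92, limma adjusted p = 0.0382). The number pairs no libraries by the labels, and deviations of same-numbered libraries correlated at −0.64 to 0.116, above 0.1 in 1 of 17 pairs. This setting has no batch term either, and its passes are not used as results.

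Without batch, Gata2 passed at both steps (−3.78 and 4.92, limma adjusted p = 0.0147 and 0.00425). With batch as a random effect, Gata1 passed between EILP and ALP (3.37, adjusted p = 0.0462) and between ILCp and ALP (3.56, 3.08e-05), and Gata2 in all comparisons (−3.78, 4.92 and 1.14, adjusted p = 0.00668, 1.05e-05 and 0.0417). Neither setting allows for the batch differences already taken out of the values, so these passes are not used as results. Gata1 between ILCp and EILP reversed to −0.77 without ALP 7 and EILP 2 and to −0.25 without EILP 1, EILP 6 and ILCp 2. The cause of the reversal was not tested.

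The ratio tests took in libraries at zero, where the ratio is set by the batch, and support no claim here. Permuting within batches, the ratio of Gata3 to Gata2 (7.38) and of Gata3 to Gata1 (4.96) between ILCp and ALP had adjusted p = 0.0938 (exact permutation), and Gata2 to Gata1 between ILCp and EILP (4.73) had 0.312. On levels before batch removal the last was 3.95 (exact permutation, adjusted p = 0.0886).

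Leaving out each library in turn gave 696 to 964, 224 to 624 and 920 to 1584 calls; the second count was 355, 224, 384 and 316 without EILP 2, EILP 5, ILCp 1 and ILCp 2, and the third 920 without ILCp 2. Gata3 ranged over 5.23 to 5.78, 2.68 to 3.24 and 7.90 to 8.75, Gata2 over −4.83 to −2.77, 3.35 to 6.26 and −0.37 to 2.31, and Gata1 over 2.41 to 5.03, −1.90 to 1.77 and 1.23 to 5.07. Between ILCp and EILP Gata1 was −1.44, −0.13 and −1.90 without EILP 2, EILP 5 and ILCp 2, and between ILCp and ALP Gata2 was −0.13 and −0.37 without ALP 1 and ILCp 1. Between reporters Gata1 ranged over −3.26 to 0.19, reversing without ILCp 2. The ratio Gata3 to Gata1 ranged over 1.38 to 3.14, 2.11 to 3.86 and 4.29 to 6.05, with the last losing its call in 14 of 19 omissions, and Gata2 to Gata1 between ILCp and EILP over 3.23 to 6.28, losing it in 9.

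Centring each library on its median shifted the median of all genes by 0.215 for EILP versus ALP and moved the split of calls from 419 higher and 520 lower to 804 and 395; for ILCp versus EILP it moved from 327 and 271 to 279 and 390, and for ILCp versus ALP from 718 and 816 to 813 and 584. The GATA genes kept their directions and calls.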
